A study of Mus musculus with 13 samples.

Results

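Kinesins are motor proteins that use ATP to act on microtubules. The genes described here are the 42 mouse genes whose symbol on the array begins with Kif or Kifc and a number, out of 22180 genes that the array names with a single symbol. Each gene is represented by the probe set with the highest mean log2 level over all 13 arrays. By textbook role, and with earlier results of these data known, they were divided into 13 mitotic kinesins, 15 transport kinesins and 14 other kinesins. Kif2a, which acts at spindle poles and also outside mitosis, was placed among the other kinesins. A gene was tested where its log2 level lay above 4.31, the median of all values, on at least 4 arrays, which held for 35 of the 42 kinesins and for 12710 of all genes. Those 35 were 12 mitotic, 13 transport and 10 other kinesins. The 7 kinesins that were not tested were Kif2b among the mitotic, Kif1a and Kif5a among the transport, and Kif21a, Kif27, Kif4-ps and Kif9 among the other kinesins.

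Most kinesins walk along a microtubule toward its plus end, carrying membranes, protein complexes or a further microtubule, while some walk toward the minus end and others shorten microtubules at their tips. Mitotic kinesins build the spindle, move chromosomes and finish cell division, and many of them are made mainly in G2 phase and mitosis. Transport kinesins work in dividing and resting cells alike, and in T cells they move vesicles, mitochondria and signalling proteins.

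The cells came from a mouse model of graft-versus-host disease. Splenocytes of C57Bl/6 mice containing 40000000 T cells were labelled with CFSE, a dye that is diluted at each division, and injected into B6D2F1 hosts, both strains being 10 to 12 weeks old. The vehicle group (4 arrays) received vehicle daily from day 0 to day 2, the TCDD group (4 arrays) received TCDD at 15 µg/kg on day 0 alone, and the Cl-BBQ group (5 arrays) received Cl-BBQ at 10 mg/kg on the same days as vehicle, all by intraperitoneal injection. Both compounds bind AhR, the aryl hydrocarbon receptor, which is a transcription factor switched on by its ligands, and they were given at different doses and on different days. At 72 hr, donor CD4+ T cells of spleen and lymph node that had divided at least 2 times by CFSE dilution were taken with pan-CD4 beads and a cell sorter. Every group shares the transfer, the hosts and this gate, so the comparisons concern cells that had already divided. The labels name the samples of a group biological replicates and do not say whether animals were pooled.

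The sorted cells had the markers of CD4 T cells. All 7 measured CD4 T cell markers of 8 listed were above the floor, and the vehicle arrays averaged 10.52 for Cd4 itself on the log2 scale and each ligand group 10.58. Their summed linear signal ranged from 17304.9 to 20741.5 under vehicle, 21241.9 to 22225.1 under TCDD and 21240.1 to 22880 under Cl-BBQ, and Thy1 was the 1 member that passed the test, higher with both ligands. Of 6 measured monocyte and macrophage markers, Lyz2, Itgam, Adgre1 and Cd14 were below the floor. Cd68 was higher with both ligands, at 6.47, 7.27 and 7.11 in the order vehicle, TCDD and Cl-BBQ (limma adjusted p = 0.0236 and 0.0398). Csf1r, the other tested marker of that list, was not called, at 4.43, 4.26 and 4.25 (limma adjusted p = 0.711 and 0.585). The summed signal of that list, in which Cd68 had the highest means, was 143.2 to 186.6, 172.3 to 291 and 192.7 to 230.6 in the same order. The part of these markers in the results below was not tested. Of the measured markers, those above the floor and so tested were 2 of 2 for CD8 T cells, 4 of 6 for B cells and 1 of 4 for plasma cells. For neutrophils they were 2 of 6, for NK cells 2 of 4 and for dendritic cells 1 of 5. None of these tested markers passed the test, and the 1 measured erythroid marker, Klf1, was below the floor. Some of these markers still had signal. In the same order, the CD8 T cell marker Cd8b1 had means of 6.74, 6.48 and 6.88 and the NK cell marker Klrb1c 6.10, 5.77 and 5.60. Replicate 1 of the Cl-BBQ group stood apart from the other arrays, with a mean correlation of 0.971 with its own group against at least 0.9802 for the other 12 arrays, and replicate 3 of the vehicle group stood apart on the third principal component.

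Every tested mitotic kinesin fell under both ligands, while the transport kinesins did not move as a group. With TCDD, 14 of the 35 tested kinesins passed the test (an adjusted p under 0.05 in limma's moderated test), beside 6.71% of all tested genes. These 14 included all 12 tested mitotic kinesins, all lower than vehicle, against 3.5% of all tested genes called lower. Their median log2 difference from vehicle was -1.09, from -1.48 (Kif23) to -0.74 (Kif18a), and 8 of the 12 fell by at least 2-fold. Among 13 transport kinesins, 1 rose (Kif3a), none fell, and the median log2 difference was 0.0044, where 3.21% of all tested genes were called higher. Among 10 other kinesins, 1 fell (Kif24) and the median was -0.02. Kif24, counted in the 14, was above the floor on no treated array. It entered the test only through the vehicle group, so its call adds no support. The median over all 12710 tested genes was -0.0009. In bulk RNA, fewer cells of a kind, such as fewer cells in G2 phase or mitosis, and less RNA per cell cannot be told apart.

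The Cl-BBQ arrays gave the same division by class, against the same 4 vehicle arrays. Again 14 of the 35 tested kinesins passed the test, beside 11.3% of all tested genes. All 12 tested mitotic kinesins were lower than vehicle, beside 6.03% of all tested genes called lower. Their median log2 difference was -1.36, from -1.76 (Kif15) to -0.96 (Kifc1), and 11 of the 12 fell by at least 2-fold. Kif3a was again the 1 transport kinesin of 13 that rose, beside 5.31% of all genes called higher, and Kif24 the 1 other kinesin of 10 that fell. As with TCDD, the call of Kif24 adds no support to the count of 14. The median was -0.02 for the transport kinesins, -0.02 for the other kinesins and -0.0064 for all tested genes. For all 12 mitotic kinesins and both ligands, each treated array lay below each vehicle array, which was so for 7.28% of all tested genes with TCDD and 6.8% with Cl-BBQ. Because both comparisons use the same vehicle arrays, the likeness of their values is no independent support. Without replicate 1 of Cl-BBQ and replicate 3 of vehicle, 12 of 12 mitotic kinesins were still called for each ligand.

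**Figure D1:**
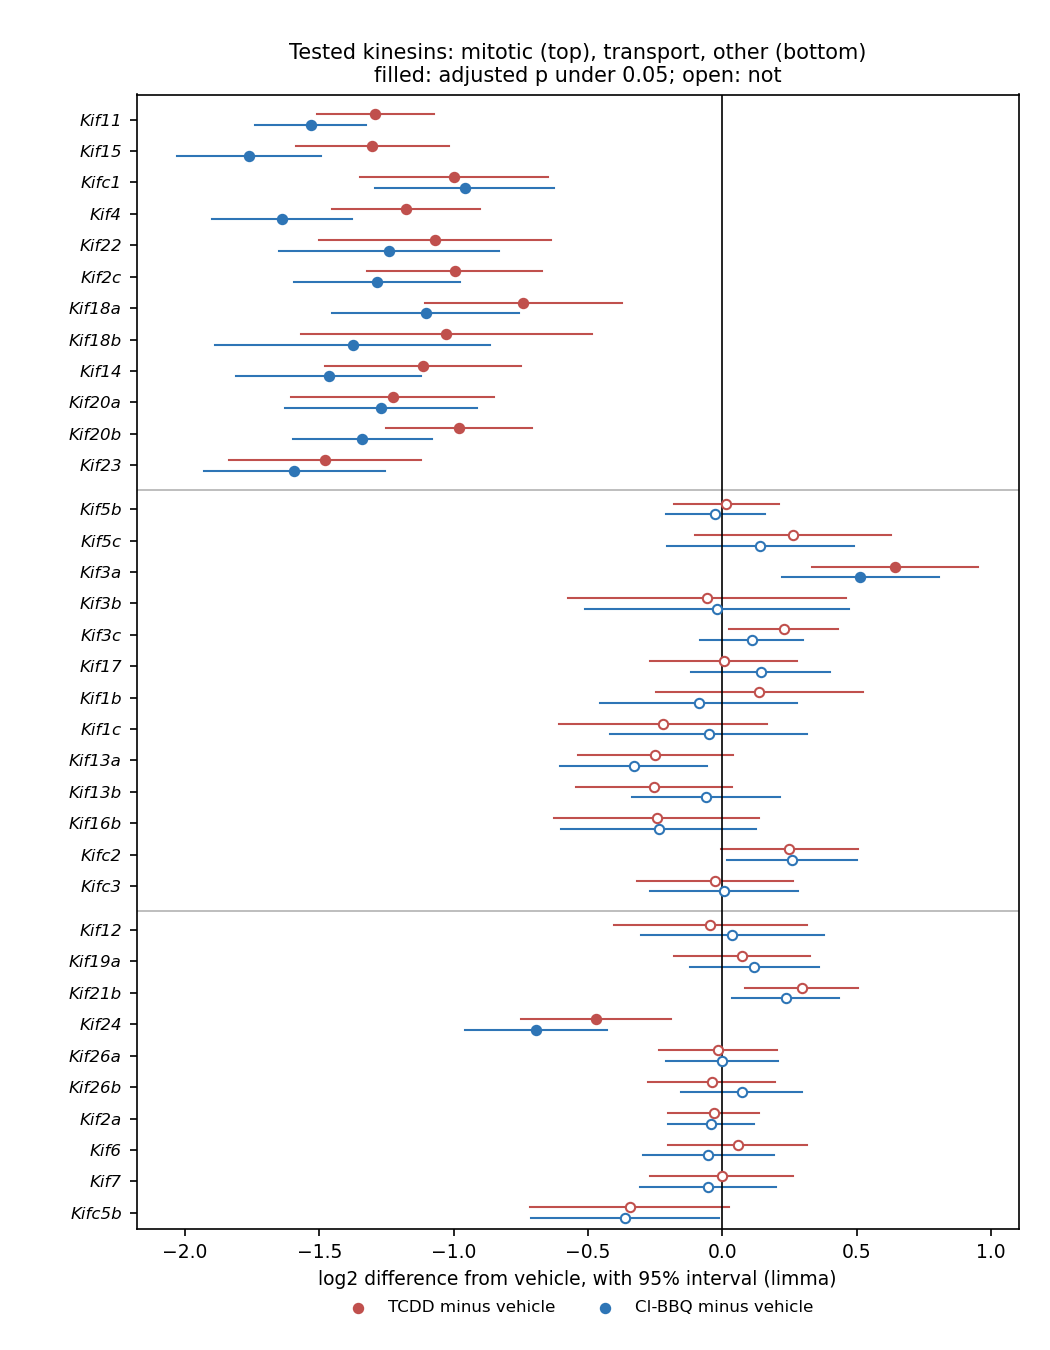
Log2 difference from vehicle for the 35 tested kinesins, with 95% intervals from limma, for TCDD (red) and Cl-BBQ (blue); filled circles have an adjusted p under 0.05. The 12 mitotic kinesins at the top lie between -1.76 and -0.74, and of the rest only Kif3a (above 0) and Kif24 (below 0) are filled.

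The kinesins that assemble the spindle were lower with both ligands. Kif11 slides antiparallel microtubules apart and so separates the spindle poles. It had log2 levels of 8.56, 8.47, 8.31 and 8.30 on the vehicle arrays, 7.19, 7.14, 7.16 and 6.99 on the TCDD arrays and 6.94, 6.69, 7.02, 6.76 and 6.98 on the Cl-BBQ arrays. The vehicle arrays were all above 8 and no treated array reached 7.2, a gap several times the spread within any group. The log2 difference from vehicle was -1.29 ± 0.10 (SE) with TCDD (limma adjusted p = 1.79e-06) and -1.53 ± 0.10 with Cl-BBQ (adjusted p = 9.49e-08), that is 2.45-fold and 2.89-fold lower. This gene had the smallest adjusted p of all kinesins in both comparisons.

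Kif15, which keeps the spindle bipolar beside Kif11, had log2 levels of 8.02, 8.05, 7.95 and 7.82 under vehicle, 7.02, 6.48, 6.41 and 6.73 under TCDD and 6.30, 6.05, 6.35, 6.00 and 6.30 under Cl-BBQ. All 3 groups were separate, with vehicle highest and Cl-BBQ lowest. The log2 differences from vehicle were -1.30 ± 0.13 (limma adjusted p = 2.23e-05) with TCDD and -1.76 ± 0.13 (adjusted p = 3.35e-07) with Cl-BBQ, the latter 3.39-fold lower. Kifc1 is a minus-end motor that gathers microtubules at the spindle poles. It stood at 5.72, 6.32, 5.75 and 6.30 under vehicle, 4.66, 5.06, 5.04 and 5.34 under TCDD and 4.86, 5.15, 5.08, 5.14 and 5.09 under Cl-BBQ. Its vehicle arrays split into 2 near 5.7 and 2 near 6.3, all above the treated arrays. Relative to vehicle the log2 difference was -0.997 ± 0.16 with TCDD and -0.96 ± 0.16 with Cl-BBQ (limma adjusted p = 0.0013 and 0.000618). Kifc5b is a gene close in sequence to Kifc1, so signal of the one may reach the probe set of the other and both values are uncertain.

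The chromokinesins, which bind chromosome arms, were also lower. Kif4 acts on chromosome condensation and, with Prc1, on the central spindle. Its log2 level was 7.13, 7.35, 7.15 and 6.75 under vehicle, 5.89, 5.94, 5.93 and 5.91 under TCDD and 5.20, 5.46, 5.65, 5.35 and 5.63 under Cl-BBQ. The TCDD arrays agreed to an SD of 0.02 and lay between the other groups without touching either. It was 2.26-fold lower with TCDD (log2 difference -1.18 ± 0.13, limma adjusted p = 4.16e-05) and 3.11-fold lower with Cl-BBQ (-1.64 ± 0.12, adjusted p = 4.62e-07).

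Kif22 pushes chromosome arms toward the spindle equator. Log2 levels were 7.52, 7.73, 7.56 and 7.32 under vehicle, 6.69, 6.33, 6.42 and 6.42 under TCDD and 5.48, 6.49, 6.66, 6.49 and 6.35 under Cl-BBQ. Cl-BBQ replicate 1 was low beside the other 4, which lay within the range of the TCDD arrays. The log2 differences from vehicle were -1.07 ± 0.20 (limma adjusted p = 0.00373) and -1.24 ± 0.19 (adjusted p = 0.000412).

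Kinesins that act at microtubule ends were lower too. Kif2c takes tubulin off microtubule ends at centromeres and so corrects wrong attachments. It measured 6.61, 6.65, 6.35 and 6.00 under vehicle, 5.56, 5.30, 5.28 and 5.49 under TCDD and 4.92, 5.29, 5.28, 4.85 and 5.27 under Cl-BBQ, on the log2 scale. Vehicle replicate 4 was the lowest of its group and still above every treated array. The log2 differences were -0.995 ± 0.15 (limma adjusted p = 0.000726) and -1.28 ± 0.14 (adjusted p = 2.4e-05).

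Kif18a damps the movements of chromosomes at the spindle equator. The vehicle arrays gave log2 levels of 5.93, 5.76, 5.52 and 6.01, the TCDD arrays 4.94, 5.25, 5.25 and 4.81, and the Cl-BBQ arrays 5.13, 4.91, 4.56, 4.57 and 4.33. The last of these lies just above the floor of 4.31, so the low end of this gene is close to what the arrays can separate. Its log2 difference was -0.74 ± 0.17 with TCDD (1.67-fold lower, limma adjusted p = 0.0152) and -1.10 ± 0.16 with Cl-BBQ (2.15-fold lower, adjusted p = 0.000286). The TCDD call was lost without vehicle replicate 1 (adjusted p = 0.0517) or TCDD replicate 4 (0.0536), the range over all alternatives being 0.00366 to 0.0536.

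Kif18b, its relative at the ends of astral microtubules, had log2 levels of 7.36, 7.02, 6.79 and 7.16 under vehicle, 6.15, 6.24, 5.94 and 5.89 under TCDD and 4.71, 5.61, 6.14, 5.95 and 6.12 under Cl-BBQ. The Cl-BBQ group was the most scattered of any mitotic kinesin (SD 0.60), with replicate 1 lowest. Against vehicle the log2 difference was -1.03 ± 0.25 with TCDD (limma adjusted p = 0.0222) and -1.38 ± 0.24 with Cl-BBQ (adjusted p = 0.00113). The TCDD call was lost without vehicle replicate 1 (adjusted p = 0.0732), vehicle replicate 4 (0.0554), TCDD replicate 3 (0.063) or TCDD replicate 4 (0.0644), with 0.000436 the smallest over all alternatives. Without Cl-BBQ replicate 1, the Cl-BBQ difference was -1.13. Kif2b, a relative of Kif2c, was above the floor on 1 of the 13 arrays and was not tested.

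The 4 kinesins of cytokinesis, the splitting of the cell after chromosome separation, fell as well. Kif23 forms, with Racgap1, the centralspindlin complex that bundles midzone microtubules. Its log2 level was 7.23, 7.45, 7.40 and 7.48 under vehicle, 6.42, 5.66, 5.78 and 5.78 under TCDD and 5.50, 6.08, 6.03, 5.61 and 5.77 under Cl-BBQ. TCDD replicate 1 was high in its group and still lay below every vehicle array. The log2 difference was -1.48 ± 0.17 with TCDD (2.79-fold lower, limma adjusted p = 5.24e-05) and -1.59 ± 0.16 with Cl-BBQ (3.02-fold lower, adjusted p = 7.52e-06).

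Kif20a brings the Aurora B complex to the midzone. It stood at 6.83, 7.15, 7.16 and 6.56 under vehicle, 5.72, 5.75, 5.63 and 5.69 under TCDD and 6.07, 5.35, 5.82, 5.23 and 5.81 under Cl-BBQ. The TCDD arrays were tight and fell inside the wider Cl-BBQ range. The log2 differences were -1.23 ± 0.18 (limma adjusted p = 0.000433) and -1.27 ± 0.17 (adjusted p = 0.000105). Kif20b, which acts late at the midbody, had log2 levels of 7.16, 7.21, 7.42 and 7.17 under vehicle, 6.37, 6.17, 6.09 and 6.40 under TCDD and 5.96, 5.53, 5.90, 5.95 and 6.16 under Cl-BBQ. Its TCDD and Cl-BBQ groups met only at Cl-BBQ replicate 5. Its log2 differences were -0.98 ± 0.13 (limma adjusted p = 0.000192) and -1.34 ± 0.12 (adjusted p = 2.82e-06).

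Kif14 works with citron kinase at the midbody. The log2 levels were 6.90, 7.14, 6.57 and 6.51 under vehicle, 5.56, 5.46, 5.77 and 5.87 under TCDD and 5.36, 5.30, 5.46, 4.85 and 5.61 under Cl-BBQ. The treated groups overlapped each other while neither overlapped vehicle. Against vehicle the log2 difference was -1.11 ± 0.17 with TCDD (limma adjusted p = 0.000703) and -1.46 ± 0.16 with Cl-BBQ (adjusted p = 1.99e-05).

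**Figure D2:**
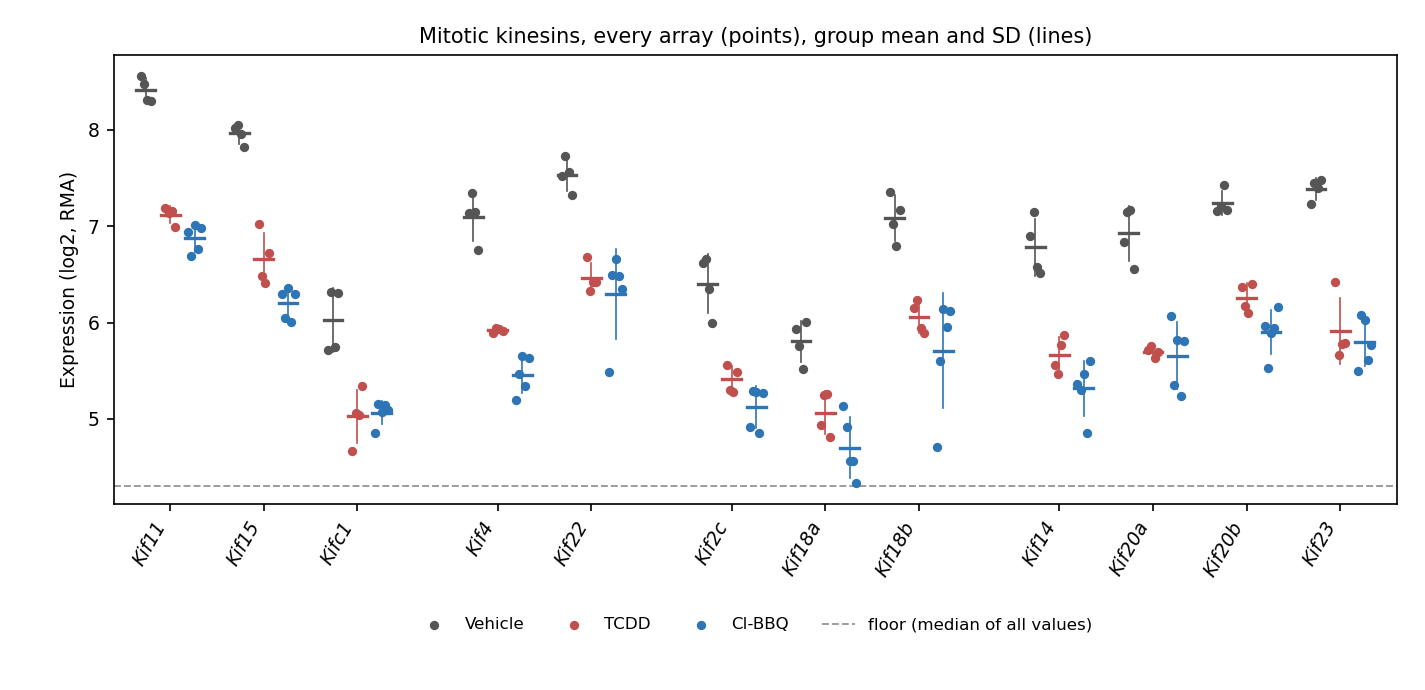
Log2 level of the 12 tested mitotic kinesins on every array (points), with group mean and SD (lines), for vehicle (grey), TCDD (red) and Cl-BBQ (blue); the broken line is the floor of 4.31. In each gene the grey points lie above all red and blue points, and the lowest value is Kif18a on a Cl-BBQ array at 4.33.

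No array was the highest or the lowest of its group for all 12 genes. Vehicle replicate 2 was the highest of its group for 6 of the 12 mitotic kinesins and vehicle replicate 4 the lowest for 7. Within TCDD, replicate 1 was highest for 5. Within Cl-BBQ, replicate 3 was highest for 5, replicate 1 lowest for 5 and replicate 4 lowest for 4.

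The promoters of these genes were searched for motifs as a planned description with no test. A part of these motifs in the differences between groups was not tested. Of the 42 kinesins, 33 had a promoter in RefSeq's GRCm38.p6 annotation, 300 bases from 250 before to 50 after the transcript start, among them 11 of the 12 tested mitotic and 9 of the 13 tested transport kinesins. Genes of G2 phase and mitosis often carry a CCAAT box, bound by NF-Y, and a cell cycle homology region (CHR), here searched as TTTGAA with TTTAAA as its other form, while GCGTG is the core of the AhR response element. All were searched on both strands, and the CHR forms, which differ in 1 letter, cannot match the same bases. The stretches from 95 bases before to 9 after the start are shown, 5′ to 3′ on the gene's strand, for 7 mitotic kinesins with a match near the start and for the kinesin-2 genes Kif3a and Kif3b for contrast, with CCAAT boxes and either form of the CHR, read on either strand, in capitals.
Kif11: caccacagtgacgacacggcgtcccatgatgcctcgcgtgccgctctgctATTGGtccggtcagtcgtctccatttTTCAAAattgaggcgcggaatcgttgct
Kif15: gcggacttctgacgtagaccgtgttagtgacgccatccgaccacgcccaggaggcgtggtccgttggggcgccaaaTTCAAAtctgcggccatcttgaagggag
Kif22: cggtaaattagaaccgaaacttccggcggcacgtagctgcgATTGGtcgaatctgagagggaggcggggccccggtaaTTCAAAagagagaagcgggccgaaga
Kif14: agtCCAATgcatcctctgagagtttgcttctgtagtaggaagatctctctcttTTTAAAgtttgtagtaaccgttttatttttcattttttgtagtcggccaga
Kif23: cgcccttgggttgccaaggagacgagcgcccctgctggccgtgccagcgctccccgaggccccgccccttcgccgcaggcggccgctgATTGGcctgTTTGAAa
Kif18b: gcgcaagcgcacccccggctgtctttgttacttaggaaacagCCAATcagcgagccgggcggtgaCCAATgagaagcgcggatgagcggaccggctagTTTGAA
Kifc1: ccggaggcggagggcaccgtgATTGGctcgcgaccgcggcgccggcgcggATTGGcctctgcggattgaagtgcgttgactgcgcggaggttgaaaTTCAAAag
Kif3a: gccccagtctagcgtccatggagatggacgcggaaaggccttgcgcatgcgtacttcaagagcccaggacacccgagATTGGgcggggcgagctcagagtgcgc
Kif3b: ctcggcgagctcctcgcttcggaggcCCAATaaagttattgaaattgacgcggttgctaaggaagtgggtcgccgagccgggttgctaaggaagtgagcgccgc
These stretches lie in GRCm38.p6, in the order above, with Kif11 at chr19:37376287-37376390 on the plus strand, Kif15 at chr9:122950986-122951089 on the plus strand, Kif22 at chr7:127042412-127042515 on the minus strand, Kif14 at chr1:136467753-136467856 on the plus strand, Kif23 at chr9:61946791-61946894 on the minus strand, Kif18b at chr11:102925116-102925219 on the minus strand, Kifc1 at chr17:33890625-33890728 on the minus strand, Kif3a at chr11:53567274-53567377 on the plus strand and Kif3b at chr2:153291321-153291424 on the plus strand.

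TTTGAA was found in the promoters of 10 of 11 tested mitotic kinesins (90.9%) and 0 of 9 tested transport kinesins, and in 20.2% of all 27025 genes with a promoter. Kif18a was the tested mitotic kinesin without it. Of the 8 tested other kinesins with a promoter, 2 had TTTGAA (25%), Kif26b and Kifc5b, each with CCAAT in the same promoter. Neither was called with either ligand. Kif24, the other kinesin that was called lower, had no TTTGAA, but it entered the test only through the vehicle group. Among kinesins below the floor, which these counts leave out, the mitotic Kif2b had no TTTGAA and the transport kinesin Kif1a had it in 1 of 2 promoters, at position -44 from the start. Of the other kinesins below the floor, Kif27 had TTTGAA at positions -191, -89 and -73 and a CCAAT box at -222, and Kif21a and Kif9 had no TTTGAA. In 8 of the 11 tested mitotic kinesins (72.7%) a TTTGAA match began within 50 bases of the start, as in 5.72% of all genes, a window chosen after the positions had been seen. In Kif11 and Kif15 the match began 19 bases before the start and in Kif22 17 bases before it, while in Kif23, Kif18b and Kifc1 it began at base 3, 4 and 2 of the transcript. CCAAT was found in 7 of 11 mitotic kinesins (63.6%) and 3 of 9 transport kinesins (33.3%), beside 41.1% of all genes. All 7 of those mitotic promoters also held TTTGAA, and 7.97% of all genes had the CCAAT box and TTTGAA in 1 promoter. GCGTG was found in 4 of 11 mitotic kinesins (36.4%) and 5 of 9 transport kinesins (55.6%), beside 35.2% of all genes. Kif3a, the transport kinesin that rose, had a CCAAT 18 bases before its start and none of the other motifs. With the 250 bases before the start alone, 5 of 11 mitotic promoters held TTTGAA (45.5%), beside 18.3% of all genes. A match is a stretch of letters, and binding was not measured.

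**Figure D3:**
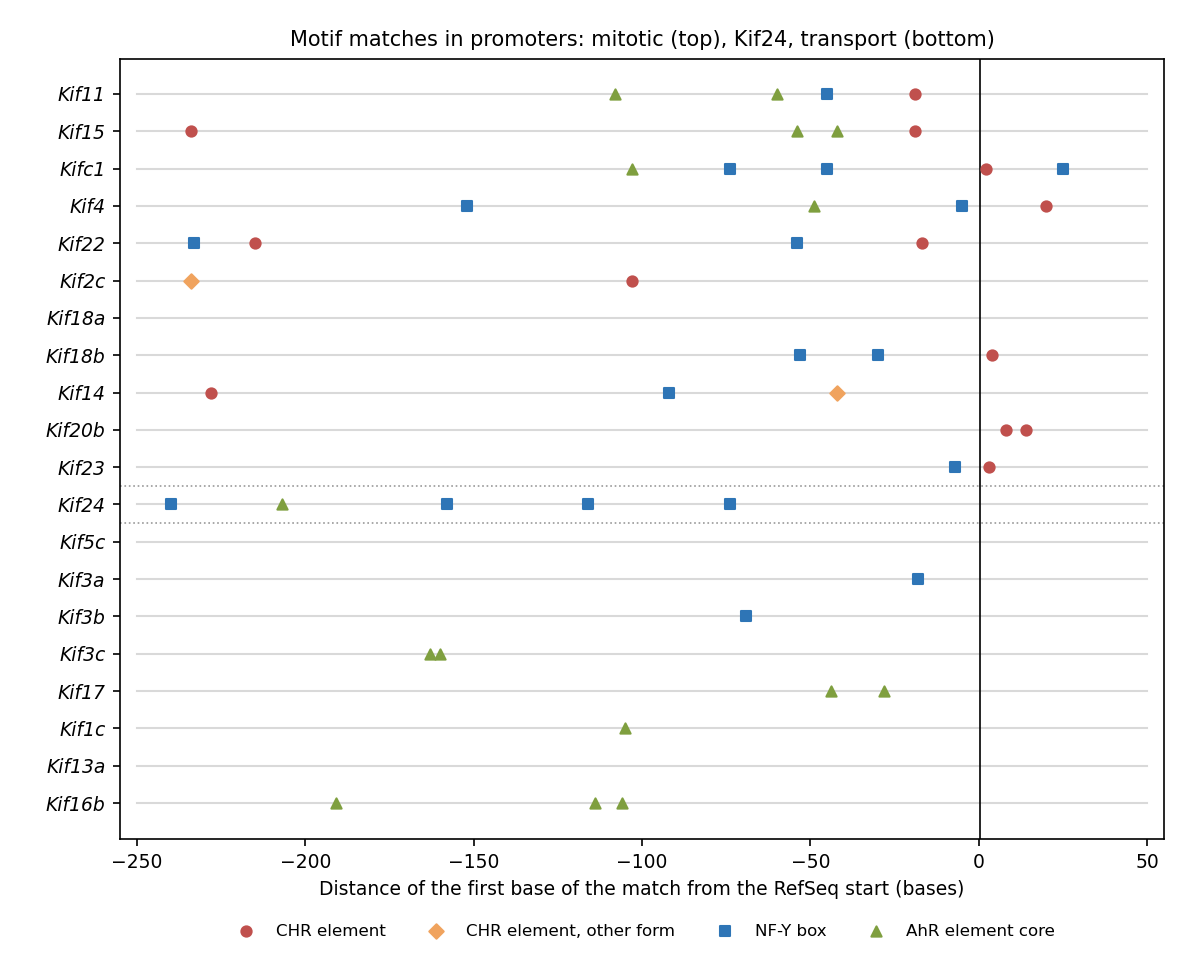
Places of motif matches in the promoters of 11 mitotic kinesins (top), Kif24 and the tested transport kinesins with 1 promoter (bottom), as the distance in bases of the first base of each match from the transcript start; circles are TTTGAA, diamonds its form TTTAAA, squares the CCAAT box and triangles GCGTG. Circles occur in 10 of the 11 mitotic promoters, most within 50 bases of the start, and in none of the transport promoters drawn.

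The 2 ligand groups were then compared with each other, each at its own dose and schedule. No kinesin passed the test between Cl-BBQ and TCDD, where 3 of 12710 genes (0.0236%) did, all higher with Cl-BBQ. Most mitotic kinesins had lower means with Cl-BBQ. The log2 difference was below 0 for 11 of 12, with a median of -0.32 beside -0.0044 for all tested genes, of which 51.4% were below 0. At an unadjusted p under 0.05 there were 6 mitotic kinesins, beside 815 of all 12710 genes. The mitotic kinesins were read on the same arrays and may vary together, so these counts are not independent observations.

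Kif4 and Kif15 were the kinesins whose Cl-BBQ arrays all lay below the TCDD arrays, as was so for 1.08% of all tested genes, and no kinesin had them all above (1.03% of all genes). The Kif4 log2 difference was -0.46 with a 95% interval from -0.72 to -0.20 (limma adjusted p = 0.461), and that of Kif15 was -0.46, from -0.73 to -0.19 (adjusted p = 0.479). The remaining unadjusted p-values under 0.05 belonged to Kif20b, Kif11, Kif18a and Kif14. At the other end, Kifc1 differed by 0.04, with an interval from -0.29 to 0.37, Kif20a by -0.04, from -0.40 to 0.32, and Kif23 by -0.11, from -0.45 to 0.22. These intervals reach to both sides of 0, so neither a difference nor a likeness between the ligand groups was shown for these genes.

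**Figure D4:**
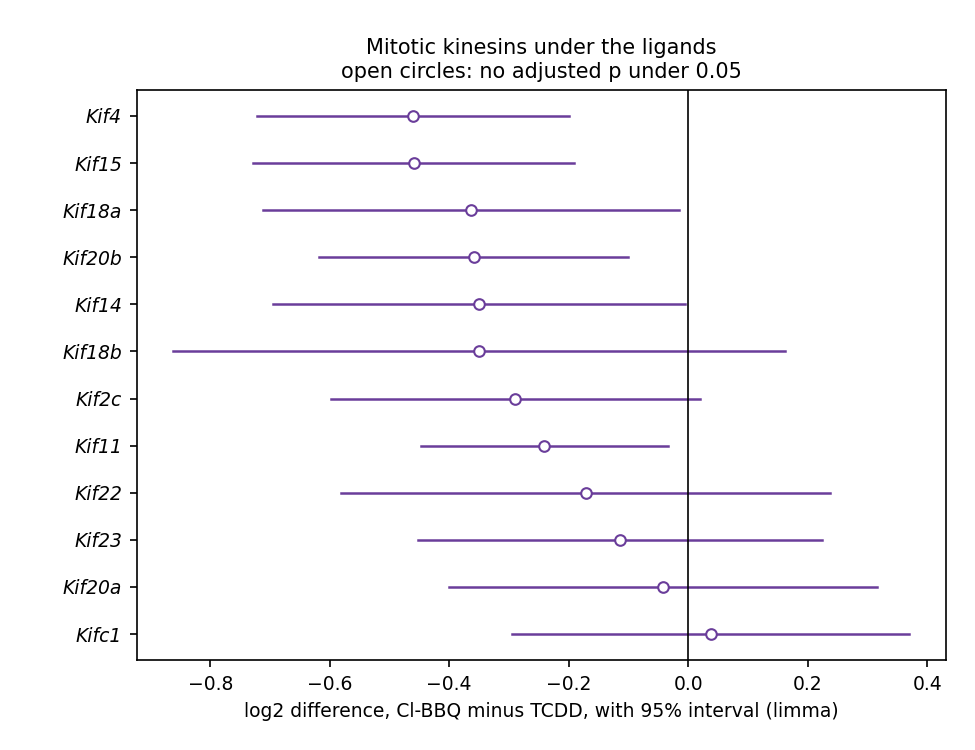
Log2 difference between Cl-BBQ and TCDD for the 12 tested mitotic kinesins, with 95% intervals from limma; open circles mark that no adjusted p was under 0.05. Of the 12, 11 lie below 0, from -0.46 for Kif4 to -0.04 for Kif20a, and Kifc1 lies at 0.04.

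Among the 13 tested transport kinesins, 1 gene rose with each ligand. This count is near the background of 6.71% with TCDD and 11.3% with Cl-BBQ of all tested genes called in either direction. Called higher were 3.21% and 5.31% of all tested genes. A single gene does not set the class apart from all tested genes. Kif3a is a motor subunit of heterotrimeric kinesin-2, which works with Kif3b and the adaptor Kifap3 in vesicle transport and in building cilia. Log2 levels were 5.08, 4.56, 5.10 and 5.02 on the vehicle arrays, 5.73, 5.59, 5.49 and 5.54 on the TCDD arrays and 5.12, 5.32, 5.50, 5.64 and 5.70 on the Cl-BBQ arrays. Vehicle replicate 2 was low in its group, and Cl-BBQ replicate 1 lay only just above the highest vehicle array. Against vehicle the log2 difference was 0.64 ± 0.14 with TCDD (1.56-fold higher, limma adjusted p = 0.0125) and 0.51 ± 0.14 with Cl-BBQ (1.43-fold higher, adjusted p = 0.0235). Higher without overlap were 6.31% of all tested genes with TCDD and 6.08% with Cl-BBQ. The Cl-BBQ call was lost without vehicle replicate 2 (adjusted p = 0.0807), Cl-BBQ replicate 4 (0.0592) or Cl-BBQ replicate 5 (0.0593), and also with only vehicle and Cl-BBQ in the fit (0.0561), and over all alternatives the adjusted p ranged from 0.0052 to 0.0855.

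Its partner Kif3b had log2 levels of 7.06, 7.12, 6.39 and 6.72 under vehicle, 6.84, 6.27, 6.85 and 7.11 under TCDD and 7.17, 6.11, 7.22, 6.85 and 6.68 under Cl-BBQ. The 3 groups overlapped almost fully, each with a low array. The log2 difference was -0.06 with TCDD, with an interval from -0.57 to 0.46, and -0.02 with Cl-BBQ, from -0.51 to 0.47. Kif5b, the broadly expressed heavy chain of kinesin-1 that carries mitochondria and vesicles, had the smallest standard errors of the 13 transport kinesins. It stood at 8.42, 8.44, 8.33 and 8.42 under vehicle, 8.47, 8.43, 8.36 and 8.42 under TCDD and 8.16, 8.56, 8.34, 8.42 and 8.42 under Cl-BBQ. Of these arrays, 5 were listed at the same value, so the standard errors may be too small. Against vehicle the log2 difference was 0.02 with TCDD (interval -0.18 to 0.21) and -0.03 with Cl-BBQ (-0.21 to 0.16), and a further probe set of Kif5b gave -0.03 and 0.02.

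The kinesin-3 genes, which carry vesicles, did not pass the test. Kif1c ranged from 5.53 to 6.39 under vehicle, 5.47 to 6.20 under TCDD and 5.86 to 6.13 under Cl-BBQ on the log2 scale, and its differences were -0.22 and -0.05. Kif1b differed by 0.14 and -0.09 and Kif13b by -0.26 and -0.06. Kif13a, which carries endosomal vesicles, differed by -0.25 with TCDD and -0.33 with Cl-BBQ (limma adjusted p = 0.365 and 0.125). The Kif13a difference with Cl-BBQ passed the test when vehicle replicate 4, low in its group, was left out (-0.45, adjusted p = 0.0294), and over its alternatives the adjusted p ran up to 0.327. Kif16b differed by -0.24 with each ligand.

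Kifc2, a kinesin-14 studied mainly in neurons, differed by 0.25 with TCDD, where all treated arrays lay above vehicle, and by 0.26 with Cl-BBQ (limma adjusted p = 0.288 and 0.181). The remaining tested transport kinesins, Kif5c, Kif3c, Kif17 and Kifc3, had log2 differences between -0.03 and 0.26. Of these, Kif17 was above the floor on 3 of 4 vehicle and 3 of 4 TCDD arrays and Kifc3 on 3 of 4 vehicle arrays and 1 array of each ligand, so small changes in them could not be seen.

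**Figure D5:**
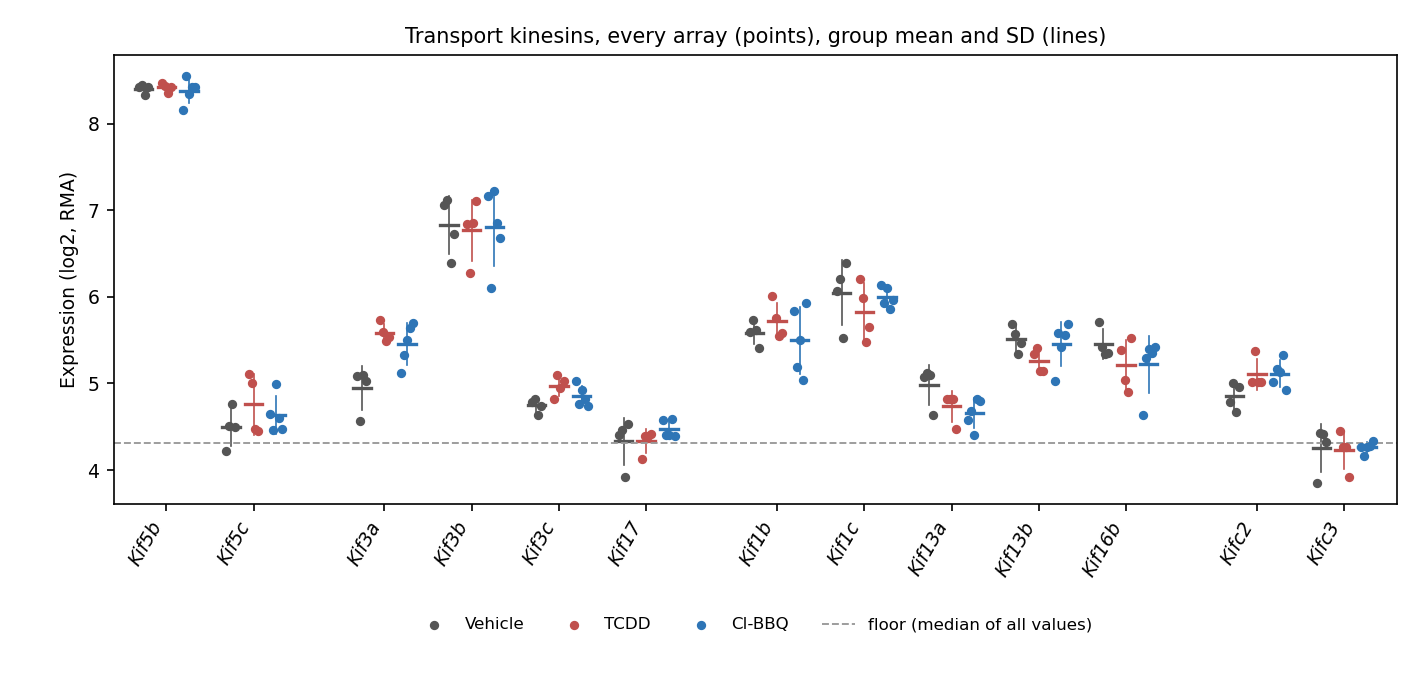
Log2 level of the 13 tested transport kinesins on every array (points), with group mean and SD (lines), for vehicle (grey), TCDD (red) and Cl-BBQ (blue); the broken line is the floor of 4.31. Kif3a is the 1 gene in which all red and blue points lie above the grey ones, from 5.12 upward against at most 5.10.

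Of the other kinesins, Kif24 was called lower. It acts at the mother centriole, where it holds back cilium formation. The vehicle arrays gave log2 levels of 4.74, 4.37, 4.74 and 4.63, the TCDD arrays 3.99, 4.26, 4.18 and 4.18, and the Cl-BBQ arrays 4.08, 3.81, 3.60, 3.97 and 4.18. It was above the floor on all 4 vehicle arrays and on none of the 9 treated arrays, so it entered the test only through the vehicle group and its call adds no support. Its log2 difference was -0.47 ± 0.13 with TCDD (limma adjusted p = 0.044) and -0.69 ± 0.12 with Cl-BBQ (adjusted p = 0.00135), both measured against values below the floor. The TCDD call was lost without any 1 of the 4 TCDD arrays (adjusted p = 0.128, 0.0618, 0.0852 and 0.0805 for replicates 1 to 4), without Cl-BBQ replicate 2 (0.0529) or Cl-BBQ replicate 4 (0.0561), and with all genes tested (0.0865), with 0.0239 the smallest over its alternatives. Without any 1 vehicle array, Kif24 was not tested.

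Kif21b slows microtubule growth and has been studied at the synapse between T cells and antigen-presenting cells. Its log2 level was 8.33, 8.31, 8.09 and 8.28 under vehicle, 8.43, 8.64, 8.65 and 8.47 under TCDD and 8.63, 8.45, 8.31, 8.55 and 8.50 under Cl-BBQ. The TCDD arrays all lay above vehicle, and the Cl-BBQ arrays overlapped it at replicate 3. The log2 differences of 0.29 ± 0.10 and 0.24 ± 0.09 missed the threshold (limma adjusted p = 0.0984 and 0.135).

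Kif2a, a shortener of microtubules at spindle poles that also works outside mitosis, hardly varied. Its log2 level was between 8.70 and 8.83 under vehicle, 8.71 and 8.74 under TCDD and 8.58 and 8.82 under Cl-BBQ, and the differences were -0.03 (interval -0.20 to 0.14) and -0.04 (-0.20 to 0.12). Kifc5b, the near copy of Kifc1, had means of 5.15, 4.80 and 4.79 in the order vehicle, TCDD and Cl-BBQ and missed the threshold (limma adjusted p = 0.321 and 0.201). Kif26a, a kinesin with no ATPase activity, differed by -0.02 and 0.00, and Kif7, a regulator of Hedgehog signalling at cilia, by 0.00 and -0.05. The remaining other kinesins, Kif6, Kif12, Kif19a and Kif26b, had log2 differences between -0.05 and 0.12. On the 4 vehicle arrays Kif26b was listed at the same value, 4.83, so its spread there is not informative.

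Genes that work with kinesins divided in the same way. Of 21 listed partners in mitosis, all tested, 18 were lower with TCDD (median log2 difference -0.93) and 19 with Cl-BBQ (median -1.23), where 3.5% and 6.03% of all genes were. The list includes Cenpe, itself a kinesin motor whose symbol the naming rule leaves out, with log2 differences of -1.30 and -1.53. Plk1, a mitotic kinase that regulates several kinesins, had log2 differences of -1.03 with TCDD and -1.45 with Cl-BBQ (limma adjusted p = 7.44e-05 and 7.95e-07). Prc1, the midzone bundler that recruits Kif4, had differences of -1.19 and -1.31 (adjusted p = 2.52e-05 and 2.48e-06). Hmmr, a spindle protein, differed by -1.17 and -1.44 (adjusted p = 2.52e-05 and 9.02e-07). Tpx2, which nucleates spindle microtubules and binds Kif11, differed by -1.32 and -1.77 (adjusted p = 0.000133 and 2.1e-06). The members not called, named after their values were seen, were Ect2 with TCDD (-0.69, adjusted p = 0.0583) and, with both ligands, Numa1 (-0.21 and -0.27) and Kifbp (-0.11 and -0.09), a kinesin-binding protein listed with both sets of partners.

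Partners in transport, that is light chains, adaptors and cargo linkers, gave 0 of 15 tested genes with TCDD in limma (2 at an unadjusted p under 0.05, beside 2284 of all 12710 genes) and 1 with Cl-BBQ, with medians of -0.07 and -0.05. Neither count is above the background of 6.71% and 11.3% of all tested genes called. The gene called was Klc4, a kinesin light chain, with a log2 difference of -0.37 (limma adjusted p = 0.0285) and arrays that overlapped vehicle. The call was lost without vehicle replicate 1 or 2 or Cl-BBQ replicate 3, 4 or 5 (adjusted p between 0.0623 and 0.0933). Dynein and dynactin, the machinery of minus-end transport, had 18 tested genes, with 1 called with TCDD and 2 with Cl-BBQ, counts near the background of 6.71% and 11.3% of all tested genes. Dctn6, a dynactin subunit, rose by 0.40 with each ligand (limma adjusted p = 0.0326 and 0.0166), and Dynlt3, a dynein light chain, fell by 0.46 with Cl-BBQ (adjusted p = 0.0287). The Dctn6 call with TCDD was lost without vehicle replicate 1, 3 or 4 or any 1 TCDD array (adjusted p between 0.0501 and 0.0923), and with Cl-BBQ without vehicle replicate 1 (0.0546) or 3 (0.0549). The Dynlt3 call was lost without vehicle replicate 1 or 2 or Cl-BBQ replicate 1 or 5 (between 0.0592 and 0.0971).

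Tubulins, the track on which kinesins move, gave 2 of 14 tested genes, both lower with both ligands, beside 3.5% of all tested genes called lower with TCDD and 6.03% with Cl-BBQ. Tubb5 had log2 levels of 11.61, 11.49, 11.43 and 11.45 under vehicle, 11.01, 10.81, 10.76 and 10.75 under TCDD and 10.73, 10.65, 10.79, 10.73 and 10.76 under Cl-BBQ. The vehicle arrays were separate from all treated arrays, with TCDD replicate 1 nearest. Its log2 difference was -0.66 ± 0.09 with TCDD and -0.76 ± 0.08 with Cl-BBQ (limma adjusted p = 0.000192 and 1.49e-05). Tuba1b had log2 differences of -0.39 and -0.56 (adjusted p = 0.0109 and 0.000246). No gene of these 4 lists passed the test between Cl-BBQ and TCDD, and 9 of the mitotic partners and 1 tubulin had an unadjusted p under 0.05 there, beside 815 of all 12710 genes. Here too the genes share the same arrays, so the counts are not independent observations.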

How the data were processed

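Gene expression was measured on 13 single-colour arrays, 4 vehicle, 4 TCDD and 5 Cl-BBQ. The deposited values were log2 expression for 41345 probe sets per array, made by the authors with RMA per the submitters' processing notes, which give no version. RMA forces a common distribution on all arrays, so a shift of all transcripts one way cannot be seen, and it can give several arrays the same value: 15 of the 35 tested kinesins had at least 2 identical values, as had 39.6% of tested genes. The number of arrays limits the precision. Scan date and slide were not examined.

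Gene names came from the annotation of the array platform (23521 with 1 symbol, 1814 with several, 16010 unnamed). Kif5b, Kif7 and Kif27 had a further probe set. With limma 3.58.1 in R 4.3.3, a model of 3 group means took in the 12710 genes above 4.31, the median of all values, on at least 4 arrays. Contrasts were tested two-sided with Benjamini-Hochberg adjustment over all tested genes, and an adjusted p under 0.05 was called. The residual degrees of freedom were 10 and the prior ones 4.22. The pipeline was tested on simulated data. SE is the moderated standard error, intervals are 95% intervals, and with no word on separate animals p-values measure the spread between these samples.

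All tested mitotic kinesins are named with values, as are the other kinesins called in any contrast, the 5 transport and 5 other kinesins with the highest mean, and per list and contrast up to 3 called genes with the smallest adjusted p; further kinesins were added after their values were seen. The members, roles and lists were chosen with earlier results of these data known. Promoter sequences came from RefSeq (GRCm38.p6, 32851 promoters of 27025 genes) and were matched by symbol. Alternatives covered the filter, the normalization, the probe set, the variance model, array weights, the samples in the fit, a replicate block, each array left out and the promoter window. A planned reading of kinesin proteins was not made.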

Additional observations from a re-analysis of the deposited data

Results flagged for a closer look

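In 11 of 105 kinesin groups of 4 or 5 arrays, 1 array lay far from the others by Dixon's ratio, the gap to the nearest array divided by the range of the group. Chance gives about 1 in 20 groups for independent values with a normal spread. These groups share the same arrays, and some hold identical values, so the count cannot be set against that rate. Replicate 1 of Cl-BBQ was such an array for 4 kinesins: Kif22 (ratio 0.739, 5.48 against 6.35 to 6.66), Kif16b (0.842, 4.64 against 5.30 to 5.42) and Kifc1 (0.742, 4.86 against 5.08 to 5.15) were low there, and Kif7 (0.830, 5.34 against 4.88 to 4.96) was high. Among vehicle arrays, Kif13a was low on replicate 4 (0.893, 4.64 against 5.07 to 5.13), Kif21b on replicate 3 (0.8293, 8.09 against 8.28 to 8.33) and Kif3a on replicate 2 (0.857, 4.56 against 5.02 to 5.10). Among TCDD arrays, Kif23 was high on replicate 1 (0.840, 6.42 against 5.66 to 5.78) and Kifc2 on replicate 2 (0.997, 5.38 against 5.01). Kif17 was low on TCDD replicate 1 (0.904, 4.13 against 4.39 to 4.42) and Kif13a on TCDD replicate 4, where the other 3 arrays shared 1 value (ratio 1, 4.47 against 4.82).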

How the results depend on the processing

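No called difference changed sign. Small differences that were not called did in some alternatives, for example Kif3b with TCDD (-0.20 to 0.11), Kif1c with Cl-BBQ (-0.26 to 0.06) and, between Cl-BBQ and TCDD, Kif20a (-0.14 to 0.06), Kif22 (-0.26 to 0.03), Kif23 (-0.20 to 0.06) and Kifc1 (-0.08 to 0.14). The mitotic kinesins called numbered 10 to 12 of 12 with TCDD and 12 of 12 with Cl-BBQ under every alternative run. When Kif2a and Kif24 were counted with them, 13 of 14 were called with each ligand. Kif2a was the member not called, and Kif24 entered the test only through the vehicle group, so its call adds no support to that count. Of 279 recounts of kinesins, 252 stayed within 1.5 times the reported count. Of 2337 refitted values of single kinesins, 2315 stayed on their side of the threshold, 21 lost the call and 1 gained it. The count of other kinesins called with TCDD was 0 with no filter, with the stricter filter, with a trended and robust variance, with the replicate block and without both arrays that stood apart (an alternative added after seeing the data), and with Cl-BBQ 0 with the stricter filter and without both arrays. Transport kinesins called with Cl-BBQ were 0 with only 2 groups in the fit and with the replicate block. Dynein and dynactin genes were 0 with TCDD with no filter and without both arrays, and 1 with Cl-BBQ with no filter, only 2 groups, the block or without both arrays. Transport partners with Cl-BBQ were 0 with no filter, only 2 groups or the block, and 2 with the stricter filter, the trended and robust variance, array weights or without both arrays. Tubulins with TCDD were 4 with the block. Leaving out each array in turn, other kinesins ranged from 0 to 1 with each ligand, transport kinesins with Cl-BBQ from 0 to 2, dynein and dynactin from 0 to 1 with TCDD and from 0 to 2 with Cl-BBQ, and transport partners with Cl-BBQ from 0 to 2. With the 250 bases before the start alone, TTTGAA was in 5 mitotic and 1 other kinesin promoters.

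The labels number the replicates in every group, but arrays of the same number did not deviate together (correlations from -0.0594 to 0.0751), so the numbers were not taken as pairs. With the number as a block, 11 mitotic kinesins were called with TCDD (Kif18b lost, adjusted p = 0.0537) and 12 with Cl-BBQ, and Kif3a with Cl-BBQ was lost (0.0855). Low signal limits Kif24, Kif17, Kifc3, Kif6 and Kif12, which lie at the floor.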
